A study of Mus musculus with 24 samples.

Results

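The genes described here are Trp53, which encodes the transcription factor p53, and 8 genes known as its targets: Cdkn1a, Mdm2, Ccng1, Trp53inp1, Bbc3, Bax, Phlda3 and Sesn2. They were taken by symbol from the count tables of both days, with the first line where a symbol had several, and all 9 were found among 22926 symbols and passed the filter on low counts. The study asked how loss of the Tet proteins, which oxidize 5-methylcytosine, affects mouse embryonic stem cells (ESCs) before and during differentiation. RNA was sequenced from 24 libraries, each from 1 clone, at D0 (ESCs kept on gelatin with leukemia inhibitory factor, LIF) and at D6 (6 days after LIF was withdrawn). Each day had 12 libraries: WT and Tet1-/- with 3 clones each, and the remaining genotypes with 2 clones each. These were Tet2-/-, the combined knockout of Tet1-/-:Tet2-/- (DKO) and that of Tet1-/-:Tet2-/-:Tet3-/- (TKO).

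All clones, WT included, came from 1 parental ESC line of 129/SVj background in which eGFP is knocked in behind Pou5f1 (Oct4). Knockout clones carry small insertions or deletions made with CRISPR/Cas9, so a genotype stands on 2 or 3 clones of that line. The study found only a single Tet2 allele in each Tet2-/- clone and a single Tet3 allele in each TKO clone. It could not exclude a large insertion or deletion on the other allele. Clones are named as in the sample descriptions, and every clone was sequenced at both days apart from clone Tet1_KO_2.3 (D0) and clone Tet1_KO_2.2 (D6). The description of 1 D6 DKO library gives the clone without its point, as DKO_512, and it was read as clone DKO_5.12. The p-values below rest on a spread between clones that each fit shared over all its groups. Without the clone as a block, libraries of the same clone counted as independent in the comparison of days.

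As background, p53 is made in most cells and held at a low level by Mdm2, a ubiquitin ligase whose own gene is a p53 target. After DNA damage or other stress p53 is stabilized, largely at the protein level, binds a sequence of paired ten-base elements and raises the transcription of genes that arrest the cell cycle, start apoptosis or restrain growth signals. ESCs are known for abundant p53 and a short G1 phase, and p53 has been tied to their exit from pluripotency. RNA counts report neither the amount nor the activity of the p53 protein.

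The p53 binding element was searched within 3000 bases of each gene start on mm9 (NCBIM37), as 20 adjoining bases with at most 2 mismatches to the textbook consensus and all core C and G bases intact. A match lay near 3 of the 9 genes, against 5.96% of 22225 protein-coding genes, and with at most 1 mismatch near Cdkn1a and Ccng1, against 0.972%. The sequences are shown because Tet2-/- clones held the lowest Ccng1 and the highest Cdkn1a of all D0 libraries. Capitals mark the matched 20 bases, on the strand of the gene.

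Cdkn1a, chr17:29227868-29227897, 41 bases upstream of the start, 1 mismatch: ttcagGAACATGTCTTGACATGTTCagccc

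Ccng1, chr11:40568959-40568988, minus strand, 160 bases upstream, 1 mismatch: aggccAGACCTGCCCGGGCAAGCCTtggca

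Ccng1, chr11:40568433-40568462, minus strand, intron, 365 bases after the start, 1 mismatch: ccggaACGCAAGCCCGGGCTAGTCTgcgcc

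Bax, chr7:52721939-52721968, minus strand, exon, 314 bases after the start, 2 mismatches: cccccGGGCAGGCCCGGGCTTGTCGctggc

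These are letter matches only, and no binding was measured. For the other genes no such letters were found in this window, which says nothing about p53 at those genes.

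Values are TMM-scaled CPM (reads of a gene as a share of the library's reads), listed by clone. Differences are log2 fold changes ± SE from edgeR's quasi-likelihood test, and a gene is said to have passed, risen, fallen, or to be higher or lower, where its Benjamini-Hochberg adjusted p over all genes tested was under 0.05. Where leaving out a library left a genotype with 1 clone, that clone was assumed to vary like the other groups, so such a p compares 1 library with WT or with the other day. Library totals ran from 18400463 to 37290208 counts. To compare genes with each other, WT levels were divided by exon length (GENCODE vM1). At D0 the order per kilobase was Bax (164 CPM per kb), Ccng1 (130), Trp53 (116), Phlda3 (81.2), Trp53inp1 (41.4), Sesn2 (32.2), Mdm2 (20.3), Cdkn1a (14.7) and Bbc3 (12.6). The ranges of the 3 WT clones overlapped between Bax and Ccng1, Ccng1 and Trp53, and Cdkn1a and Bbc3, and between no other neighbours. At D6 Ccng1 led alone (133 CPM per kb), Bax, Phlda3, Trp53 and Trp53inp1 overlapped as neighbours between 71.1 and 77.6, Cdkn1a (30.5), Mdm2 (25.6) and Bbc3 (22.3) overlapped in turn, and Sesn2 was lowest (15.3).

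The Tet transcripts were read first as a check of the labels, although small insertions or deletions need not lower the RNA. Tet2 RNA at D0 was 87.9 to 94.2 CPM in WT, 20.9 and 23.0 CPM in Tet2-/-, 55.3 and 22.01 CPM in DKO and 42.7 and 8.20 CPM in TKO. Tet1 RNA did not separate the genotypes, with 92.7 to 355 CPM in Tet1-/- at D0 against 222 to 427 CPM in WT, and clones TKO_8.4 and TKO_8.12 stood at the extremes (570 and 41.9 CPM). Tet3 RNA was 4.45 and 2.86 CPM in TKO and 5.002 to 7.99 CPM in WT at D0. At D6 Tet2 RNA was 16.04 and 16.73 CPM in Tet2-/-, 10.1 and 5.80 CPM in DKO and 16.4 and 10.4 CPM in TKO against 12.3 to 15.97 CPM in WT, so it did not check the Tet2-/- or TKO labels of that day. Tet3 RNA at D6 was 7.81 and 8.62 CPM in TKO and 13.3 to 21.0 CPM in WT.

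**Figure D1:**
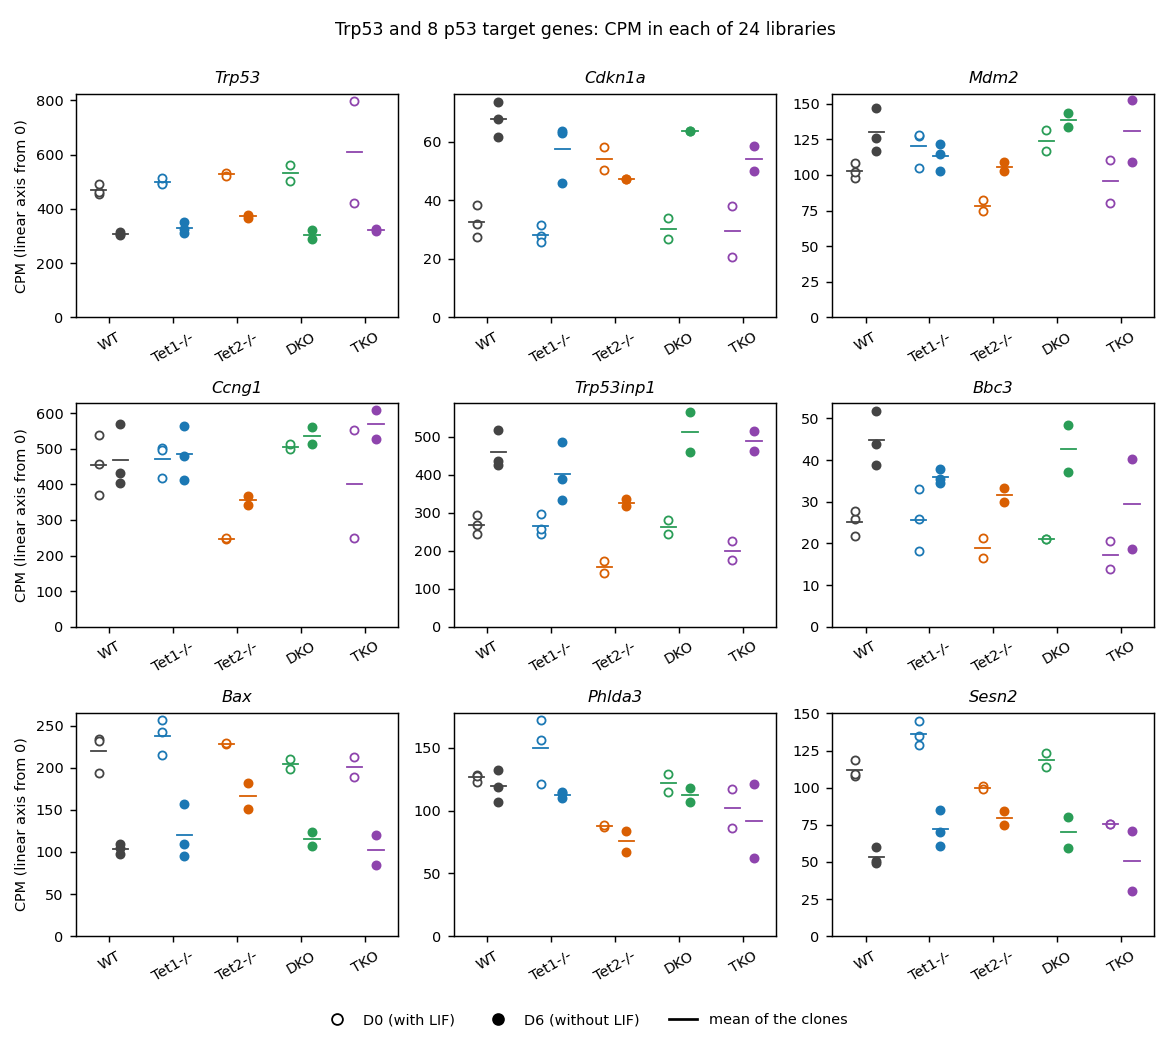
CPM (linear axis from 0) of each of the 9 genes in every library, by genotype, with open points for D0, filled points for D6 and a bar for the mean of the clones. Trp53 and Bax lie lower at D6 than at D0 in every genotype and Trp53inp1 lies higher, while Cdkn1a rises everywhere except in Tet2-/-, where D0 and D6 are close.

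The first question was how these genes moved when WT cells left LIF. Of the 9 genes, 4 rose (Cdkn1a, Trp53inp1, Bbc3 and Mdm2), 3 fell (Trp53, Bax and Sesn2) and 2 did not pass (Ccng1 and Phlda3). Over all 15639 genes tested 33.5% rose and 32.8% fell, so a share of this size is near the background and is no result about these genes. In bulk RNA, fewer cells that express a gene cannot be told apart from less RNA in each cell. The cells also changed state: all 6 pluripotency markers tested (Pou5f1, Nanog, Sox2, Zfp42, Esrrb, Klf4) fell in WT, and their summed level went from 4111 to 4193 CPM at D0 to 664 to 1508 CPM at D6, a shift whose part in the results was not tested. At D0 the same sum was 3977 to 4463 CPM over ESCs of all genotypes, while 3 blood markers (Ptprc, Hbb-bh1, Gata1) summed to at most 4.68 CPM in any library.

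Trp53 itself fell. WT clones O4.1, O4.2 and O4.13 had 456, 462 and 491 CPM at D0 and 303, 316 and 306 CPM at D6. The days did not overlap, and the change was -0.61 ± 0.14 (adjusted p 0.00092). Mdm2, the inhibitor of p53, had 98.1, 109 and 102 CPM at D0 and 126, 147 and 117 CPM at D6 in the same clones, a rise of 0.33 ± 0.13 (adjusted p 0.030). This rise did not pass with the clone as a block (adjusted p 0.0566) or without D0 clone O4.1, D0 clone O4.13 or D6 clone O4.2 (adjusted p 0.0844, 0.0703 and 0.145).

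The genes of cell cycle arrest moved unlike each other. Cdkn1a, which encodes the cyclin-dependent kinase inhibitor p21, had 38.5, 27.5 and 31.9 CPM in WT clones O4.1, O4.2 and O4.13 at D0 and 67.8, 61.9 and 73.7 CPM at D6. All WT clones rose, by 1.05 ± 0.18 in the fit (adjusted p 6.14e-05). Ccng1, which encodes cyclin G1, a partner of Mdm2 in the feedback on p53, had 370, 538 and 458 CPM at D0 and 402, 571 and 432 CPM at D6 (0.04 ± 0.21, adjusted p 0.87). WT clone O4.2 was the highest for Ccng1 at both days, and clones differed more than days. Trp53inp1, whose nuclear protein promotes p53-dependent arrest and autophagy, rose from 243, 294 and 268 CPM to 438, 518 and 426 CPM (0.78 ± 0.14, adjusted p 9.14e-05).

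The apoptosis genes moved in opposite directions. Bbc3 encodes PUMA, a BH3-only protein that frees Bax-type effectors, and had 26.0, 21.9 and 27.9 CPM at D0 and 38.9, 44.0 and 51.7 CPM at D6 in WT clones O4.1, O4.2 and O4.13 (0.83 ± 0.23, adjusted p 0.0044). Bax, the effector that permeabilizes the mitochondrial outer membrane, had 234, 193 and 232 CPM at D0 and 97.3, 110 and 105 CPM at D6. No WT clone at D6 reached the lowest D0 value of Bax (-1.08 ± 0.15, adjusted p 6.39e-06).

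Of the 2 genes that restrain growth signals, Sesn2 fell and Phlda3 did not pass. Sesn2, a leucine sensor that inhibits mTORC1, had 108, 109 and 118 CPM in WT at D0 and 49.1, 60.1 and 50.6 CPM at D6 (-1.07 ± 0.20, adjusted p 9.63e-05). Phlda3, which competes with Akt for membrane lipids, had 123, 129 and 128 CPM at D0 and 107 to 133 CPM at D6 (-0.08 ± 0.18, adjusted p 0.69).

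The same comparison was made in each knockout. Trp53, Trp53inp1 and Bax passed in all 5 genotypes, each in the direction seen in WT. Tet1-/- had 2 genes rising and 4 falling (background 32% and 31.3%), Tet2-/- had 2 and 2 (20.4% and 19.6%), DKO had 3 and 3 (27.6% and 28%), and TKO had 4 and 2 (25.2% and 25.2%). As in WT, these counts are close to what all genes show. With the study's 2-fold threshold added, 3 of the 9 genes passed in WT (34% of all genes) and 1 each in Tet1-/- (31.1%), Tet2-/- (19.1%), DKO (29.2%) and TKO (25.4%).

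Trp53 fell by 0.52 ± 0.17 on the log2 scale in Tet2-/- (adjusted p 0.023), and by 0.62 ± 0.14 (Tet1-/-), 0.84 ± 0.17 (DKO) and 0.91 ± 0.17 (TKO) in the others. The Tet2-/- value did not pass without either clone at either day (adjusted p 0.0749 to 0.117). The TKO value rests in part on D0 clone TKO_8.12, described below, and was -0.38 without it (adjusted p 0.00584). Bax fell by 0.47 ± 0.19 in Tet2-/-, from 228 and 229 CPM to 151 and 182 CPM in clones Tet2_KO_3.10 and Tet2_KO_3.11 (adjusted p 0.0496, and 0.061 with the clone as a block), and by 0.86 to 1.00 in the other knockouts. The Tet2-/- Bax call was also lost without any one of 18 libraries. RLE scaling, library totals, no low-count filter and summed lines of a symbol each ended it too.

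Trp53inp1 had its smallest rise in Tet1-/- (0.58 ± 0.14) and its largest in TKO (1.30 ± 0.17), and in no genotype did D0 and D6 libraries overlap. Clones Tet2_KO_3.10 and Tet2_KO_3.11 of Tet2-/- went from 174 and 141 CPM to 336 and 319 CPM, and clones TKO_8.4 and TKO_8.12 from 175 and 225 CPM to 463 and 516 CPM. Bbc3 rose in DKO (0.99 ± 0.29, adjusted p 0.0071) and TKO (0.78 ± 0.29, adjusted p 0.032) and missed the threshold in Tet2-/- (0.73 ± 0.29, adjusted p 0.0504, and 0.0195 with the clone as a block) and Tet1-/- (0.47 ± 0.23, adjusted p 0.087). The TKO clones disagreed on Bbc3: clone TKO_8.4 had 20.6 CPM at D0 and 40.2 at D6, and clone TKO_8.12 had 13.9 and 18.7. The call was lost without D0 clone TKO_8.12 (0.52, adjusted p 0.24) or D6 clone TKO_8.4 (0.13, adjusted p 0.733), and in DKO without D6 clone DKO_5.12 (adjusted p 0.0737).

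Mdm2 passed in Tet2-/- (0.41 ± 0.16, adjusted p 0.045) and TKO (0.46 ± 0.16, adjusted p 0.022), with -0.10 ± 0.13 in Tet1-/- and 0.13 ± 0.16 in DKO. In clones Tet2_KO_3.10 and Tet2_KO_3.11 it went from 74.4 and 82.2 CPM to 109 and 102 CPM. This change did not pass with the clone as a block (adjusted p 0.0726) or without any one Tet2-/- library. It was also lost without some single libraries of WT, Tet1-/- or DKO. In TKO it went from 80.5 to 153 CPM in clone TKO_8.4 and from 111 to 109 CPM in clone TKO_8.12, and the call was lost without either library of clone TKO_8.4 at D0 or D6 (0.26 and 0.22, adjusted p 0.244 and 0.331). Whether the change of Mdm2 differed from that in WT was tested directly, and no knockout passed (adjusted p 0.593 in Tet1-/-, and above it in the others).

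Sesn2 fell in Tet1-/- (-0.94 ± 0.19) and DKO (-0.80 ± 0.24), with -0.34 ± 0.24 in Tet2-/- (adjusted p 0.26) and -0.56 ± 0.24 in TKO (adjusted p 0.056, and 0.0259 with the clone as a block). Sesn2 in TKO at D6 was 71.1 CPM in clone TKO_8.4 and 30.7 in clone TKO_8.12, the lowest of all libraries, after 75.5 and 75.8 CPM at D0. Without D6 clone TKO_8.4 the TKO value was -1.28 (adjusted p 5.68e-05), and without D6 clone TKO_8.12 it was -0.08 (adjusted p 0.764). The DKO call was lost without D0 clone DKO_5.11 or D6 clone DKO_5.12 (adjusted p up to 0.107).

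Phlda3 passed in Tet1-/- alone (-0.43 ± 0.18, adjusted p 0.039), from 173, 157 and 122 CPM in clones Tet1_KO_2.1, Tet1_KO_2.3 and Tet1_KO_2.4 at D0 to 115, 114 and 110 CPM in clones Tet1_KO_2.1, Tet1_KO_2.2 and Tet1_KO_2.4 at D6, and not with the clone as a block (adjusted p 0.184). Leaving out any one of 10 libraries (adjusted p up to 0.162), DESeq2 (0.0554), RLE scaling or scaling by library totals (0.292) also ended this call. Ccng1 passed in no genotype, with 0.50 ± 0.25 in Tet2-/- and 0.51 ± 0.25 in TKO, but did so in both with the clone as a block (adjusted p 0.0379 and 0.0123). Without D0 clone TKO_8.12 the TKO value of Ccng1 was 1.19 (adjusted p 0.000496).

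**Figure D2:**
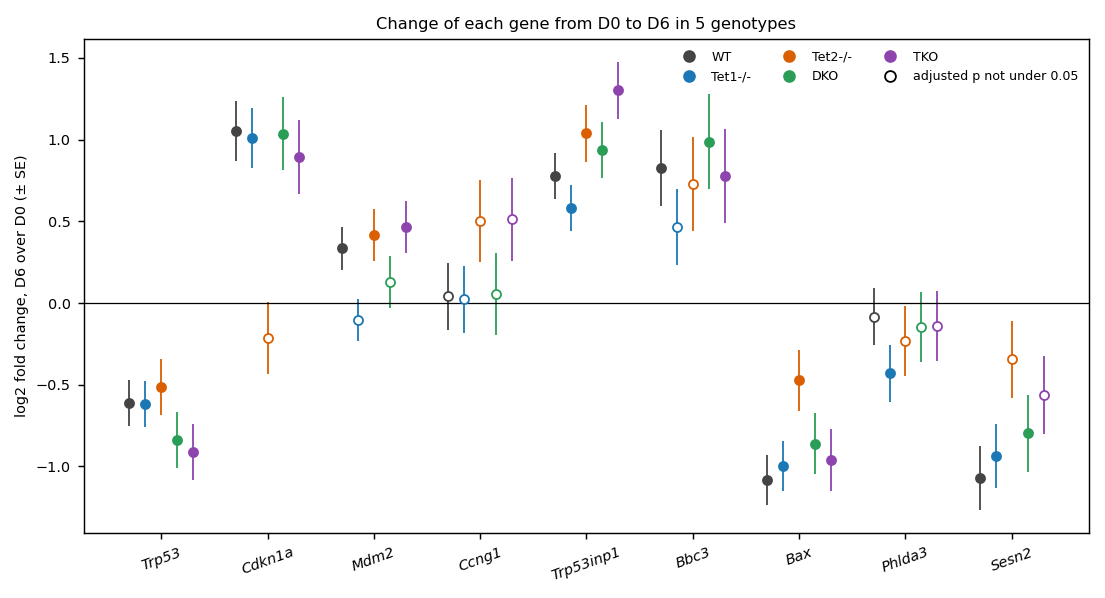
Log2 fold change of D6 over D0 ± SE for each gene in each of 5 genotypes, with filled points where the adjusted p was under 0.05. Tet2-/- stands apart for Cdkn1a, at -0.21 against 0.89 to 1.05 in the other genotypes, and has the smallest falls of Bax (-0.47) and Sesn2 (-0.34).

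Cdkn1a was the gene whose course differed most by genotype. It rose in Tet1-/- (1.01 ± 0.18), DKO (1.04 ± 0.22) and TKO (0.89 ± 0.22) as it did in WT (1.05), but was -0.21 ± 0.22 in Tet2-/- (adjusted p 0.47). Clones Tet1_KO_2.1, Tet1_KO_2.3 and Tet1_KO_2.4 had 31.4, 27.7 and 25.7 CPM at D0, and clones Tet1_KO_2.1, Tet1_KO_2.2 and Tet1_KO_2.4 had 63.0, 63.8 and 45.8 CPM at D6. Clones DKO_5.11 and DKO_5.12 went from 33.9 and 26.7 CPM to 63.7 and 63.6 CPM, and clones TKO_8.4 and TKO_8.12 from 38.0 and 20.7 CPM to 58.5 and 50.0 CPM. The TKO call was lost without D0 clone TKO_8.12 (0.51, adjusted p 0.0644).

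Clones Tet2_KO_3.10 and Tet2_KO_3.11 began high, at 58.2 and 50.4 CPM, above every other D0 library, and ended at 47.5 and 47.2 CPM, below every WT, DKO and TKO library at D6. The test of the difference itself, the D6 over D0 change in Tet2-/- minus that in WT, gave -1.26 ± 0.29 (adjusted p 0.0093, and 0.00421 with the clone as a block). It was lost without D0 clone Tet2_KO_3.10 (-1.15, adjusted p 0.0583). The cell state markers moved in the same test: 2 of 6 pluripotency markers were higher (median 1.18), 3 of 4 mesoderm markers lower (median -5.01), 2 of 4 endoderm markers lower (median -4.05), 1 of 3 neuroectoderm markers higher, and 1 of 3 trophectoderm, 1 of 4 fibroblast and 1 of 1 blood markers lower. Their part in the Cdkn1a result was not tested. Of the 9 genes only Cdkn1a passed this test, against 16% of all genes in Tet2-/-. Bax (0.61 ± 0.24, adjusted p 0.086) and Sesn2 (0.73 ± 0.31, adjusted p 0.105) did not, although Bax passed without D6 clone Tet1_KO_2.4 (adjusted p 0.0321) and Sesn2 without D6 clone TKO_8.4 or TKO_8.12 (adjusted p 0.0167 and 0.0159).

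**Figure D3:**
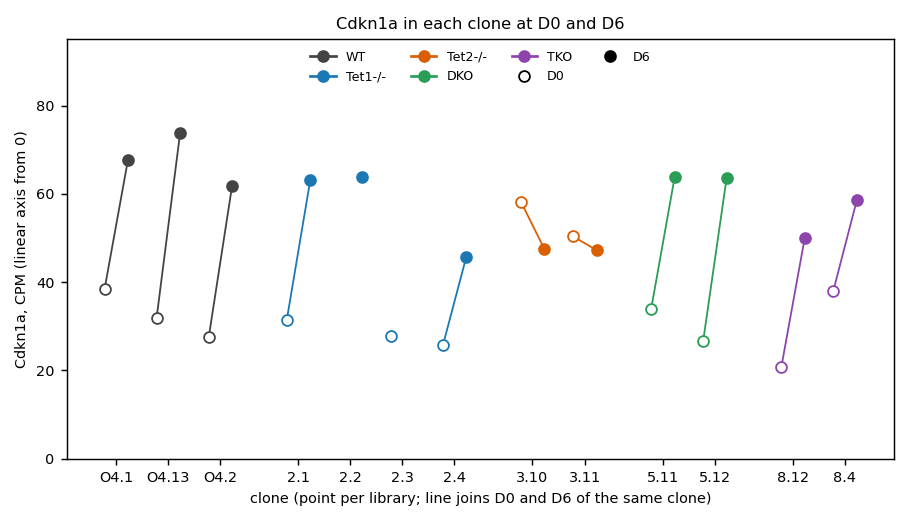
Cdkn1a in CPM (linear axis from 0) for every library, by clone and genotype, with a line from D0 (open) to D6 (filled) where the same clone was sequenced at both days. The line rises in all 9 paired WT, Tet1-/-, DKO and TKO clones, and falls in both Tet2-/- clones, from 58.2 to 47.5 and from 50.4 to 47.2 CPM.

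In the other knockouts the change of no member differed from that in WT by edgeR's test, with 1, 0 and 1 genes at an unadjusted p under 0.05 in Tet1-/-, DKO and TKO and 0, 0 and 0 by DESeq2. Over all genes 0% passed in Tet1-/-, 0% in DKO and 5.97% in TKO. The pair of TKO clones pulled this comparison apart: with 1 TKO library left at a day, whose spread was taken from the other groups, the value of Trp53 was -0.70 without D0 clone TKO_8.4 (adjusted p 0.00397), that of Ccng1 1.15 without D0 clone TKO_8.12 (adjusted p 0.0107) and that of Sesn2 0.99 without D6 clone TKO_8.12 (adjusted p 0.0171).

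The next question was whether knockout ESCs differed from WT before LIF was withdrawn. All knockouts are set against the same 3 WT libraries, so their values are not independent of each other. In Tet2-/- 3 of 9 genes were lower than WT (Ccng1, Trp53inp1 and Phlda3) and none higher, against 9.8% of all 14456 genes tested in either direction. In TKO 1 gene, Sesn2, was lower, against 8.61%. In Tet1-/- and DKO none passed by edgeR (background 0.0138% and 0.0484%), with 1 and 0 genes at an unadjusted p under 0.05 and 0 and 0 by DESeq2.

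Ccng1 had 247 and 249 CPM in clones Tet2_KO_3.10 and Tet2_KO_3.11, below the 370 to 538 CPM of WT (-0.89 ± 0.25, adjusted p 0.045). Trp53inp1 had 174 and 141 CPM against 243 to 294 CPM (-0.78 ± 0.14, adjusted p 0.011). Phlda3 had 86.9 and 88.3 CPM against 123 to 129 CPM (-0.55 ± 0.15, adjusted p 0.042). None of these calls held without either Tet2-/- clone (adjusted p 0.225 and 0.212 for Ccng1, 0.0627 and 0.137 for Trp53inp1, 0.225 and 0.208 for Phlda3), and those of Ccng1 and Phlda3 were also lost without some libraries of WT, Tet1-/- or DKO, that of Ccng1 with the lines of a symbol summed (adjusted p 0.0506) and that of Phlda3 with all 24 libraries in one fit (adjusted p 0.113).

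Mdm2, at 74.4 and 82.2 CPM in Tet2-/- against 98.1 to 109 CPM in WT, was -0.41 ± 0.14 (adjusted p 0.074). Cdkn1a pointed the other way, at 58.2 and 50.4 CPM against 27.5 to 38.5 CPM, a difference of 0.72 ± 0.22 that missed the threshold (adjusted p 0.058). Groups did not overlap for either gene, nor for any other of the 9 except Bax. The share of all genes without overlap was not counted. The values of Trp53 were 531 and 522 CPM in Tet2-/- against 456 to 491 CPM in WT (0.15 ± 0.19, adjusted p 0.62). Both Tet2-/- clones thus lay above every WT clone for Trp53, without passing. Of the 6 pluripotency markers, 1 (Esrrb) was higher and 1 (Zfp42) lower than WT in Tet2-/- at D0, and their part in these results was not tested.

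**Figure D4:**
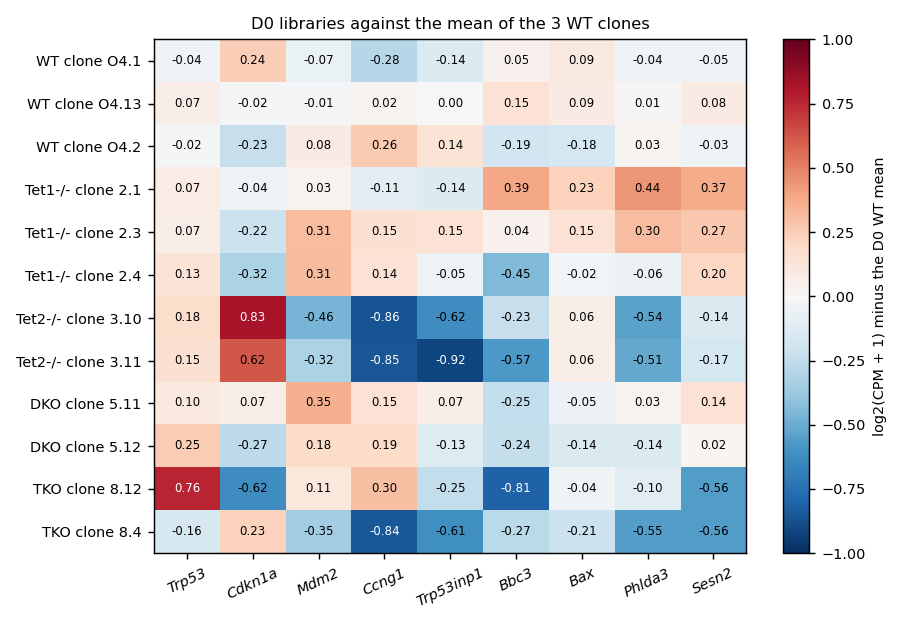
Log2(CPM + 1) of each gene in each D0 library minus the mean of the 3 WT clones, with the value printed in each cell (red higher, blue lower). Clone TKO_8.4 has low Ccng1 (-0.84), Trp53inp1 (-0.61) and Phlda3 (-0.55) like the Tet2-/- clones, while clone TKO_8.12 has high Trp53 (0.76) and low Cdkn1a (-0.62).

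The TKO clones were unlike each other at D0. Clone TKO_8.4 had 250 CPM of Ccng1, 80.5 of Mdm2 and 85.9 of Phlda3, all within 10 CPM of the Tet2-/- clones, and 38.0 CPM of Cdkn1a. Clone TKO_8.12 had 553 CPM of Ccng1, the highest at D0, and 20.7 CPM of Cdkn1a, the lowest. By Euclidean distance over the 9 genes, in log2(CPM + 1), the library nearest to clone TKO_8.4 was clone Tet2_KO_3.11 (0.82) and the nearest to clone TKO_8.12 was clone DKO_5.12 (1.04), and 4 of the 12 D0 libraries had their nearest neighbour in their own genotype.

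Sesn2 was alike in both TKO clones, at 75.5 and 75.8 CPM in clones TKO_8.4 and TKO_8.12 against 108 to 118 CPM in WT (-0.58 ± 0.09, adjusted p 0.0052). Both clones lay below every other D0 library. The call held without any one library, with adjusted p at most 0.0251, and was lost when all 24 libraries shared one fit (adjusted p 0.137). Trp53inp1 in TKO, at 175 and 225 CPM, did not pass (-0.43 ± 0.14, adjusted p 0.071) but did with DESeq2 or with library totals (adjusted p 0.0385 and 0.0456). Bbc3, at 20.6 and 13.9 CPM against 21.9 to 27.9 CPM in WT, did not pass (-0.56 ± 0.24, adjusted p 0.16). Nor did Phlda3, at 85.9 and 118 CPM against 123 to 129 CPM (-0.33 ± 0.15, adjusted p 0.19). Trp53inp1, Bbc3 and Phlda3 lay below WT in both TKO clones. Of the cell state markers, Klf4 (0.78 ± 0.19), Nes (1.31 ± 0.25) and Eomes (1.09 ± 0.30) were higher and Nanog (-0.41 ± 0.09) lower in TKO than in WT at D0, and their part in the Sesn2 result was not tested.

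Across all D0 libraries, the 3 lowest values of Ccng1 (clones Tet2_KO_3.10 and Tet2_KO_3.11 and clone TKO_8.4) all came with Cdkn1a values among the 4 highest, and the highest Ccng1 (clone TKO_8.12) with the lowest Cdkn1a. WT showed the same order, from clone O4.1 (370 CPM of Ccng1, 38.5 of Cdkn1a) to clone O4.2 (538 and 27.5). D6 did not show this order: the lowest Ccng1 values, 341 and 368 CPM in the Tet2-/- clones, came with 47.2 and 47.5 CPM of Cdkn1a, among the 3 lowest. Over all 24 libraries, which share clones and days, Pearson's r was -0.11.

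Trp53 in clone TKO_8.12 was 797 CPM at D0, far above the 420 CPM of clone TKO_8.4 and the 456 to 560 CPM of all other D0 libraries. Trp53 and Ccng1 both lie on chromosome 11. In that library the 837 expressed genes of chromosome 11 had a median of 0.41 above the WT mean (log2), against -0.192 to 0.179 in the other 23 libraries. Wrap53, the neighbour that starts head to head with Trp53, had 63.7 CPM there and 29.5 to 40.4 CPM in the other D0 libraries. At D6 the same clone had 324 CPM of Trp53, within 6 CPM of clone TKO_8.4, and a chromosome 11 median of 0.133. The part of the chromosome-wide shift in the Trp53 and Ccng1 values was not tested. Chromosomes 6, 8, 12 and 19, which hold 0 of the 9 genes, had shifts of that size too. The chromosome 8 median was 0.28 to 0.472 above WT in the 4 Tet2-/- libraries, 0.206 to 0.282 in the 4 TKO libraries and 0.322 in D6 clone Tet1_KO_2.4. In clone TKO_8.12 the medians of chromosomes 6 and 12 were 0.461 and 0.43 at D0 and 0.449 and 0.412 at D6, and that of chromosome 19 was 0.423 in D0 clone TKO_8.4. Chromosome 6 reached 0.211 in D0 clone Tet2_KO_3.11, and all other autosome medians lay within 0.2 of WT. The part of these shifts in the Tet2-/- and TKO results was not tested. Trp53 passed in no D0 comparison, either with all libraries or without clone TKO_8.12. Clone TKO_8.12 alone stood 0.75 above WT. The TKO value of both clones together (0.36 ± 0.19, adjusted p 0.23) lies between them.

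At D6, 4 of 9 genes differed from WT in Tet2-/-: Bax was higher, and Cdkn1a, Trp53inp1 and Phlda3 were lower, against 28.5% of all 15435 genes tested. In Tet1-/-, DKO and TKO none passed by edgeR, against 0% of all genes in each (0% in Tet1-/-, 0% in DKO and 0% in TKO), with 0, 0 and 1 genes at an unadjusted p under 0.05 and 0, 0 and 0 by DESeq2. At this day the markers of cell state separated Tet2-/- as well. The 6 pluripotency markers summed to 1962 to 2126 CPM in Tet2-/- and 664 to 1585 CPM in all other D6 libraries, and 1 of 6 (Pou5f1) was higher than in WT by the test. The 4 mesoderm markers (T, Mixl1, Hand1, Kdr) summed to 10.9 to 20.7 CPM in Tet2-/- and 91.2 to 621 CPM elsewhere, and the 4 endoderm markers (Gata6, Gata4, Sox17, Foxa2) to 9.5 to 11.0 CPM against 16.5 to 260 CPM. All 8 were lower in Tet2-/- than in WT and none was at 0. Of 3 neuroectoderm markers 2 were higher in Tet2-/- (Pax6 by 2.84 ± 0.65 and Sox1 by 2.39 ± 0.63, with Nes at -0.49 ± 0.24), and their sum of 78.9 to 86.8 CPM lay among the 73.1 to 136 CPM of the other libraries. All 3 trophectoderm markers (Cdx2, Eomes, Elf5) were lower, with sums of 56.6 to 81.05 CPM against 71.7 to 358 CPM and Elf5 at 0 in both Tet2-/- clones, and 2 of 4 fibroblast markers were lower (14.9 to 16.99 CPM against 29.7 to 306 CPM). The part of these cell states in the results was not tested.

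Bax had 151 and 182 CPM in clones Tet2_KO_3.10 and Tet2_KO_3.11, above the 97.3 to 110 CPM of WT (0.65 ± 0.20, adjusted p 0.034). Cdkn1a, with 47.5 and 47.2 CPM against 61.9 to 73.7 CPM, was -0.54 ± 0.15 (adjusted p 0.023). Trp53inp1 had 336 and 319 CPM against 426 to 518 CPM (-0.52 ± 0.16, adjusted p 0.038). Phlda3 had 67.1 and 84.1 CPM against 107 to 133 CPM (-0.69 ± 0.22, adjusted p 0.040). No Tet2-/- clone overlapped WT for any of the 9 genes, passed or not, so the lack of overlap does not mark out these genes. The share of all genes without overlap was not counted.

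None of the 4 calls held without either Tet2-/- clone (adjusted p 0.0879 to 0.237), or without WT clone O4.1 or O4.13. The Cdkn1a call was also lost with all 24 libraries in one fit (adjusted p 0.0505) and that of Phlda3 with the replicate number of the day as a block (adjusted p 0.0815). With the 2-fold threshold 0 of the 9 genes differed from WT in Tet2-/- at D6 (14.3% of all genes), in Tet2-/- at D0 (3.19%) or in TKO at D0 (3.15%). Trp53 (368 and 378 CPM against 303 to 316 CPM, 0.25 ± 0.09, adjusted p 0.056) and Sesn2 (74.9 and 84.6 CPM against 49.1 to 60.1 CPM, 0.55 ± 0.28, adjusted p 0.15) lay above WT in both clones without passing. Ccng1 (368 and 341 CPM against 402 to 571 CPM, -0.43 ± 0.17, adjusted p 0.079), Mdm2 (109 and 102 CPM against 117 to 147 CPM, -0.33 ± 0.15, adjusted p 0.119) and Bbc3 (29.9 and 33.3 CPM against 38.9 to 51.7 CPM, -0.53 ± 0.26, adjusted p 0.142) lay below WT in both clones without passing. Thus Trp53inp1 and Phlda3 were lower in Tet2-/- at both days, while Cdkn1a had the higher mean at D0 and was lower at D6. In TKO at D6, clone TKO_8.12 had 18.7 CPM of Bbc3 and 62.5 of Phlda3 against 40.2 and 121 CPM in clone TKO_8.4, and clone TKO_8.12 alone, with the spread taken from the other groups, stood at -1.24 and -0.91 against WT (adjusted p 0.0184 and 0.0215).

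**Figure D5:**
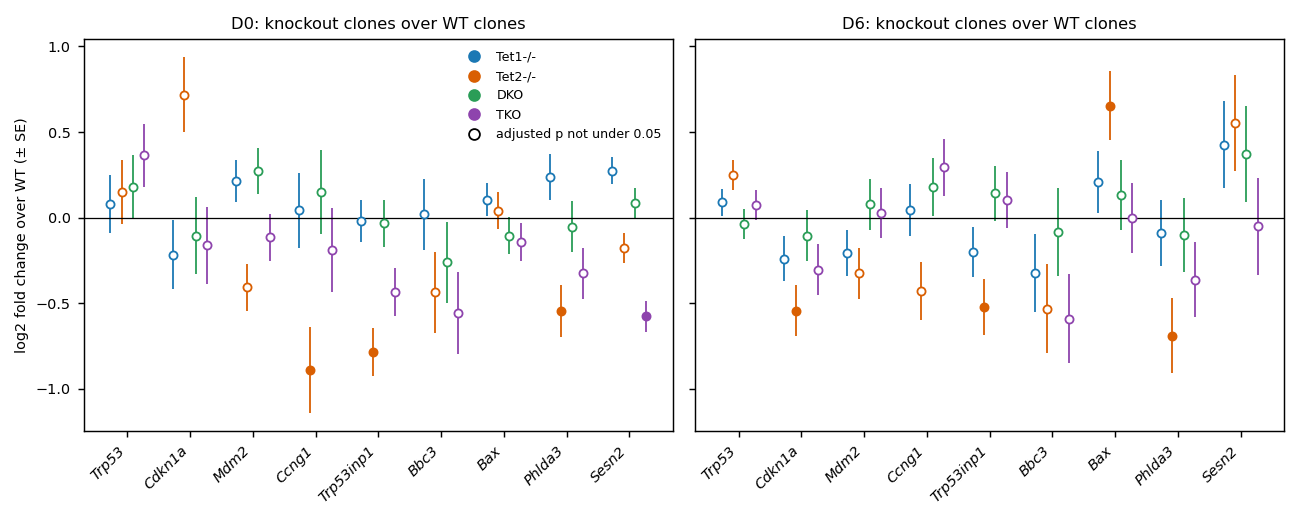
Log2 fold change of each knockout over WT ± SE for each gene, at D0 (left) and D6 (right), with filled points where the adjusted p was under 0.05. Filled points are Tet2-/- (Ccng1, Trp53inp1 and Phlda3 at D0, and Cdkn1a, Trp53inp1, Bax and Phlda3 at D6) and TKO (Sesn2 at D0).

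A list of 38 further p53 target genes, of which 37 could be tested (Fas could not), was read beside the 9. Calls on it and on the regulators below were not tried with a library left out or with other processing. Both lists were chosen with earlier results of these data known. From D0 to D6, 14 rose and 13 fell in WT (median log2 change 0.12, against 0.015 over all genes), near the 33.5% and 32.8% of all genes. In the knockouts 12 rose and 13 fell in Tet1-/- (32% and 31.3% of all genes), 9 and 5 in Tet2-/- (20.4% and 19.6%), 12 and 11 in DKO (27.6% and 28%) and 14 and 9 in TKO (25.2% and 25.2%). Ddit4, an inhibitor of mTORC1, rose by 2.48 ± 0.37 in WT and by 1.58 (Tet2-/-) to 3.08 (DKO) in the knockouts. Tnfrsf10b, a death receptor, rose by 1.86 ± 0.12 in WT, and Polk, a translesion DNA polymerase, by 1.47 ± 0.13. The fructose bisphosphatase Tigar, listed under its older symbol 9630033F20Rik, fell by 2.07 ± 0.21 in WT, and the kinase Plk3 fell by 1.55 ± 0.28.

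At D0, 11 of the 37 were lower and 0 higher in Tet2-/- than in WT, against 4.79% and 5.02% of all genes (median -0.30, against -0.0074 over all genes), with 1 lower in TKO (4.17% of all genes) and none in Tet1-/- or DKO by edgeR. Pmaip1, which encodes the BH3-only protein NOXA, was -2.50 ± 0.44 in Tet2-/- (adjusted p 0.011), and Ak1, an adenylate kinase, was -0.86 ± 0.12. At D6, 5 were higher and 13 lower in Tet2-/-, against 12.9% and 15.6% of all genes (median -0.44, against -0.033 over all genes), and 0 passed in the other knockouts. The higher ones included the receptor kinase Epha2 (1.49 ± 0.33) and Tigar, or 9630033F20Rik (1.20 ± 0.28), and the lower ones the tetraspanin gene Cd82 (-1.86 ± 0.38), the desmosomal gene Perp (-1.63 ± 0.32) and the antiproliferative gene Btg2 (-1.43 ± 0.21). The change from D0 to D6 differed from WT for 6 of the 37 in Tet2-/-, a share near the 16% of all genes, among them Pmaip1 (2.01 ± 0.67) and Btg2 (-0.92 ± 0.24). In TKO it differed for 1 of the 37, Eda2r (0.78 ± 0.22), against 5.97% of all genes.

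Of 22 regulators and relatives of p53, 6 rose and 9 fell in WT from D0 to D6, against 33.5% and 32.8% of all genes (median -0.059, against 0.015 over all genes), and 5 rose and 2 fell in Tet2-/- (20.4% and 19.6% of all genes). In Tet1-/- 5 rose and 8 fell (32% and 31.3% of all genes), in DKO 5 and 8 (27.6% and 28%) and in TKO 5 and 5 (25.2% and 25.2%). Ppp1r13l, which encodes iASPP, an inhibitor of p53, rose by 1.43 ± 0.20 in WT. Sirt1, a deacetylase that acts on p53, fell by 1.45 ± 0.18, and the ubiquitin ligase gene Rchy1 by 0.94 ± 0.12. At D6 7 of the 22 were higher and 2 lower in Tet2-/- than in WT, against 12.9% and 15.6% of all genes (median 0.26, against -0.033), with Sirt1 at 1.26 ± 0.16, the checkpoint kinase gene Chek2 at 0.61 ± 0.20 and Ppp1r13l at -0.65 ± 0.19. The change from D0 to D6 differed from WT for 7 of the 22 in Tet2-/-, 6 higher and 1 lower, against 16% of all genes. The higher ones included the p53 relative Trp73 (1.84 ± 0.60), Chek2 (1.14 ± 0.24), Sirt1 (0.95 ± 0.28) and the damage kinase gene Atr (0.93 ± 0.21), and the lower one was Ppp1r13l (-1.24 ± 0.30). In TKO 1 of the 22 was higher by this test, also Atr (0.86 ± 0.21), and 1 lower, Trp53bp2 (-0.58 ± 0.15), against 5.97% of all genes. At D0, 2 of 21 were higher and 2 lower in Tet2-/-, against 5.02% and 4.79% of all genes, and 1 of each in TKO, against 4.44% and 4.17%.

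The genes most like Trp53 over the 24 libraries, by Pearson's r of log2(CPM + 1), were Eif5a (0.974), Wdr41 (0.971) and Aimp2 (0.971). Those most like Cdkn1a were Nyap1 (0.955), Agpat4 (0.947) and Ppp1r13l (0.947). These are a description over libraries that share clones and days.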

How the data were processed

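The authors selected polyadenylated RNA, sequenced paired-end reads on a NextSeq 500 and, per the submitters' processing notes, mapped them with STAR 2.5.1 to mm9. The authors deposited counts per transcript line, whole numbers with no normalization or pooling. The strand setting is not given in the sources used here. ERCC spike-in lines were not in the tables used here, so the study's spike-in scaling was not repeated. The authors used DESeq with a 2-fold threshold.

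Each table has 31928 lines for 22926 symbols. The first line of a symbol was used. Trp53, Cdkn1a, Mdm2 and Trp53inp1 have 2 lines. A processed pseudogene, Trp53-ps, is annotated, and reads it shares with Trp53 would be uncertain. In R 4.3.3, edgeR 4.0.16 kept genes by filterByExpr (minimum count 10), scaled by TMM and fitted quasi-likelihood models to the D0 libraries, the D6 libraries and all 24. limma 3.58.1 was loaded with it, and DESeq2 1.42.0 was an alternative. The 9 genes and the lists were chosen with earlier results of these data known. Named from the further lists were, per comparison, up to 4 genes with the largest passing changes in each direction. All are given as groups, with examples.

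Replicate numbers mark different clones at the 2 days in DKO and in part of WT and Tet1-/-, whereas the descriptions name the clones, so the block was the clone. Its check, the correlation over 15639 genes of a clone's deviations from the group means at D0 and D6, gave 0.0795 to 0.194. Replicate counts differed by 8.02 to 97.6 times the sampling variance, so no libraries were merged, and clone spread rather than depth limits precision. On simulated counts, 57% of genes changed by 1 log2 unit were recovered for WT D6 against D0, with 2.56% of calls false. For Tet2-/- against WT it was 64% at D0 (5.88% false) and 37% at D6 (2.63% false). Each simulation changed 200 genes, far fewer than passed in the same comparison of the real counts. These shares therefore need not hold for the real counts. The p53 element search used mm9 gene starts from GENCODE vM1, and autosome medians used genes with a mean of at least 5 CPM. Alternatives were other scalings, no filter, DESeq2, other lines per symbol, a 2-fold threshold, one shared fit, replicate blocks and leaving out each library.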

Additional observations from a re-analysis of the deposited data

Results flagged for a closer look

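Cdkn1a was flagged because its change from D0 to D6 differed between genotypes by the interaction test. The change in Tet2-/- minus that in WT was -1.263 on the log2 scale, with lower D6 than D0 values in 2 of 2 Tet2-/- clones and higher ones in 3 of 3 WT clones. Across the alternatives the value ran from -1.405 to -1.148 and the adjusted p from 0.00056 to 0.0583. No group of the series has 4 or more samples, so single outlying samples were not tested for.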

How the results depend on the processing

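Of 38 calls on the 9 genes, 19 passed under each of 9 alternatives that applied to their comparison and with each of 24 libraries left out in turn, 19 were lost under at least 1 and 0 reversed. All 19 that passed compared D6 with D0. Every call of a knockout against WT, and the interaction call of Cdkn1a, was lost under at least 1. Of those 19 that passed, 7 also exceeded a 2-fold change. With the study's 2-fold threshold added, the number of genes passing from D0 to D6 was 3 in WT (34% of all genes) and 1 each in Tet1-/- (31.1%), Tet2-/- (19.1%), DKO (29.2%) and TKO (25.4%). Against WT it was 0 in Tet2-/- at D0 (3.19%), 0 in TKO at D0 (3.15%) and 0 in Tet2-/- at D6 (14.3%). Without that threshold, the number for TKO against WT at D0 was 2 with library totals, 2 with DESeq2 and 0 in one fit of 24 libraries, against 1 as reported. Scaling by library totals moved the median of all genes by 0.141 to 0.209 between D0 and D6, and ended the day calls of Bax and Trp53 in Tet2-/- (adjusted p 0.172 and 0.0815), Sesn2 in DKO (0.051) and Phlda3 in Tet1-/- (0.292). RLE scaling ended those of Bax in Tet2-/- and Phlda3 in Tet1-/-.

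Leaving out single libraries, the number of genes passing ran from 1 to 6 for Tet2-/- between days, 0 to 1 for Tet1-/-, 0 to 5 for Tet2-/- and 1 to 4 for TKO against WT at D0, 0 to 6 for Tet2-/- and 0 to 2 for TKO against WT at D6, and 0 to 2 for Tet2-/- and 0 to 1 for TKO in the interaction. The cause was not tested. With the clone as a replicate block 6, 5, 4, 6 and 8 genes passed between days in WT, Tet1-/-, Tet2-/-, DKO and TKO, against 7, 6, 4, 6 and 6 without it, and the calls it changed are given beside the genes. Blocking within a day on the replicate number, which marks no shared clone, gave adjusted p 0.0297 for Cdkn1a in Tet2-/- at D0 and 0.0815 for Phlda3 in Tet2-/- at D6. With 2 clones in 3 of the genotypes, clone differences limit every comparison more than depth.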
